A study of Mus musculus with 6 samples.

Results

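The 8 genes described here encode 4 secreted matrix proteins and 4 enzymes or enzyme subunits that modify collagen in the endoplasmic reticulum. They were taken as the rows of the deposited table that carry the symbols Ecm1, Tgfbi, Sparc, Vcan, Plod1, Plod3, P4ha1 and P4hb. They are 8 of 38207 genes and loci. The study sequenced cDNA of microglia, the resident macrophages of the brain, on nanopores. Each library pooled the cells of 30 wild-type (WT) mice, with 3 pools after sham surgery (the controls) and 3 after tMCAO. That abbreviation commonly stands for transient occlusion of the middle cerebral artery, which models ischemic stroke. No other treatment is named for either group, and the sources used here give neither the age of the mice, nor the time after surgery, nor how cells were isolated. The genes were chosen by symbol with their levels in tMCAO and sham known, so their differences between these groups are given as a description, without a test.

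The extracellular matrix is built from proteins that cells secrete, and matricellular proteins such as SPARC and TGFBI bind collagen or integrins and alter how cells hold on to it rather than forming fibres themselves. Before a collagen or collagen-like chain leaves the endoplasmic reticulum, prolyl 4-hydroxylase hydroxylates its prolines, which steadies the triple helix, and lysyl hydroxylases modify its lysines, which prepares sugars and cross-links. Microglia are not known as a main source of fibrillar collagen, but SPARC is made by resting microglia, and the complement component C1q, a microglial product, carries a collagen-like stem.

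Levels are given as CPM, the counts of a gene scaled to the total counts of its library. These totals ran from 2371235 to 2614512 in sham and from 1855495 to 2030550 in tMCAO, so that 1 count was worth 0.382 to 0.539 CPM. On the first principal component (53.0% of the variance) the groups lay apart. On the second (20.9%), tMCAO 3 was alone at 53.2, the other tMCAO libraries were at -30.8 and -23.7, and the highest sham library was sham 1 at 12.9. All 12 markers of microglia had counts in every library, and their summed level was 37922 to 39121 CPM in sham and 37453 to 42079 CPM in tMCAO. Of these 12 markers, P2ry12 and Siglech were called lower and none higher, and the number called lower was 2 in each of 15 other settings. With no filter, or without tMCAO 3, 1 was called higher. The 8 choroid plexus markers summed to 8629 to 44639 CPM in sham and 2273 to 9963 CPM in tMCAO. The 5 erythroid markers summed to 955 to 6040 CPM and 215 to 380 CPM, and the 3 tested were lower in every tMCAO library than in any sham library. The 8 neutrophil markers summed to 1729 to 2217 CPM in sham and to 1710, 392 and 896 CPM in tMCAO 1 to 3. The part of these cells in the values below was not tested. Log2 fold changes compare tMCAO with sham in a fit of all genes with edgeR and carry their standard error (SE).

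Of the 8 genes, 4 had higher levels in every tMCAO library than in any sham library (Ecm1, Tgfbi, Plod1 and P4hb), 1 had lower levels (Sparc), and the groups overlapped for 3 (Vcan, Plod3 and P4ha1). Among all 13127 genes tested, the groups did not overlap with tMCAO higher for 23.3% and with tMCAO lower for 14.6%. Vcan had too few counts to be tested. Of the 7 genes tested, the fit of all genes called the same 4 higher and the same 1 lower at an adjusted p under 0.05, where it called 9.17% of all tested genes higher and 8.96% lower. Without any 1 of the sham libraries it called 3 higher, since Tgfbi was no longer called. Nothing is read from these counts, because the comparison was known when the genes were chosen.

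**Figure D1:**
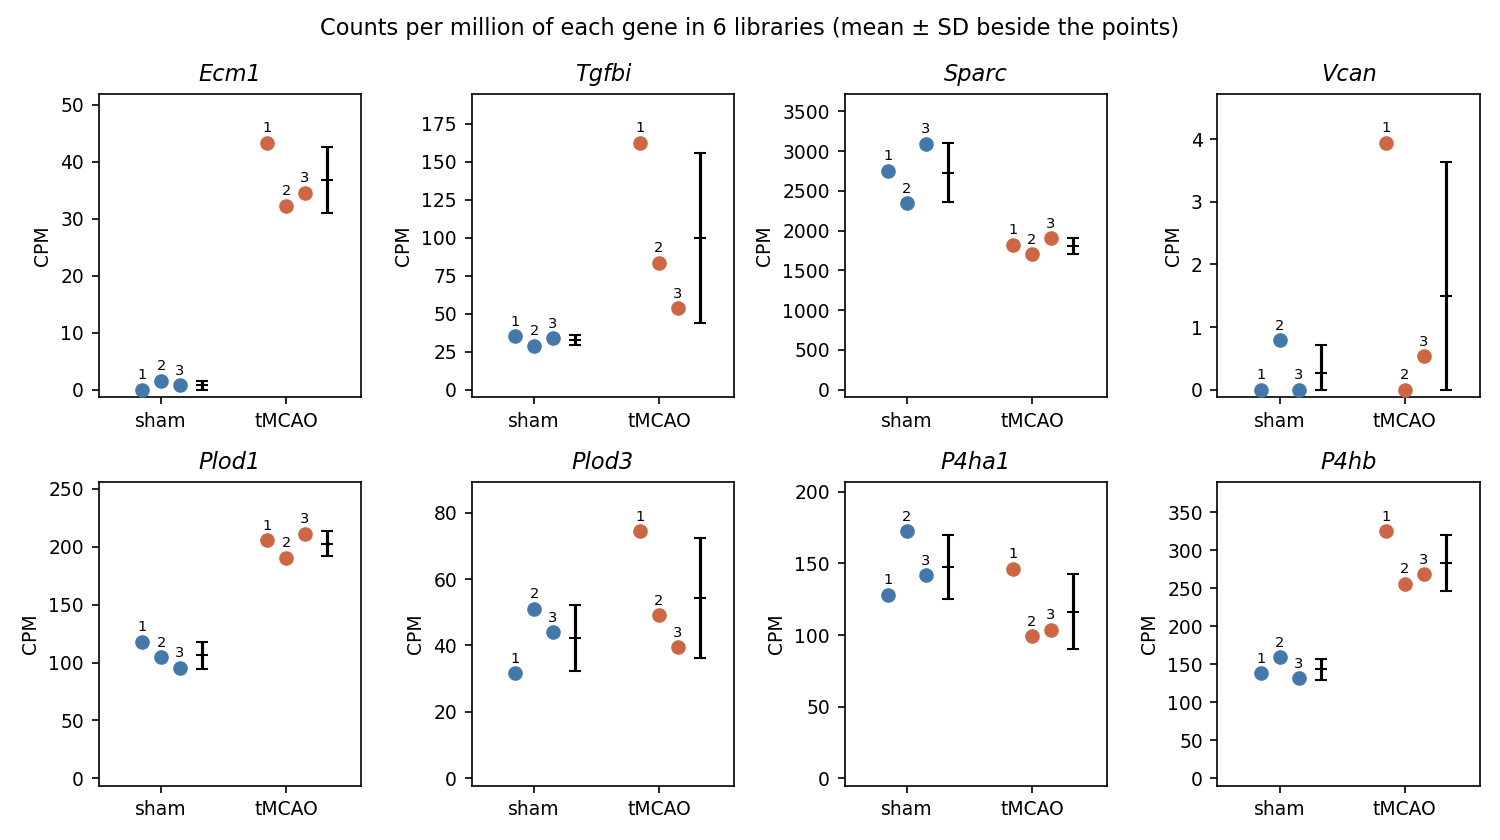
Level in CPM of each of the 8 genes in the 3 sham (blue) and 3 tMCAO (orange) libraries, numbered by replicate, with the mean and SD of each group in black (bars that would pass below 0 end at 0). Ecm1, Tgfbi, Plod1 and P4hb lie higher in all 3 tMCAO libraries, Sparc lies lower, and the groups overlap for Vcan, Plod3 and P4ha1.

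Ecm1 (ENSMUSG00000028108) encodes extracellular matrix protein 1, a secreted glycoprotein. It had the largest fold change of the 7 tested genes, from near absence in sham to a modest level after tMCAO. Sham 1 to 3 held 0, 4 and 2 counts, or 0, 1.59 and 0.765 CPM, and the 0 counts of sham 1 allow a level of up to 1.27 CPM (3 counts). The tMCAO libraries held 88, 60 and 65 counts, or 43.3, 32.3 and 34.6 CPM. The group means were 0.783 ± 0.793 and 36.8 ± 5.81 CPM (SD, n = 3), with a log2 fold change of 5.31 ± 0.47 (SE). The size of this fold rests on 6 sham counts against 213 in tMCAO. Their ratio after scaling was 46.2, with an exact 95% interval of 20.9 to 127 that covers counting error only. Without sham 1 the log2 fold change was 4.76 and without sham 2 it was 6.24, so the tMCAO level is better known than the fold. In such bulk pools, more cells of a type that expresses a gene and more of its RNA per cell cannot be told apart.

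The promoter of Ecm1 is shown because its gene had the largest fold change. It is the stretch of 250 bases before the RefSeq start site at chr3:95739570-95739819 (GRCm38.p6, minus strand), and letters found in a motif search are in capitals.
Ecm1: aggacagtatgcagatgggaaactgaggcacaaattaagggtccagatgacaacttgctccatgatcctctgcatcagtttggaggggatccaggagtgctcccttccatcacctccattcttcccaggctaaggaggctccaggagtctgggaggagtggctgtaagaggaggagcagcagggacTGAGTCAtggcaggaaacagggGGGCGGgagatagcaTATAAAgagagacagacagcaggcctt
The search read both strands of this stretch for 8 motifs. Among them were the AP-1 site, written TGANTCA with N for any base, and the GC box, GGGCGG, which the factor Sp1 can bind. The TATA box was searched as TATAAA. The others were the hypoxia response core, the CCAAT box, the core read by PU.1, the ER stress element (which begins with a CCAAT box) and the interferon response element. In the Ecm1 promoter it found an AP-1 site that begins 64 bases before the start, a GC box 42 bases before it and a TATA box 27 bases before it. Of 32851 RefSeq promoter windows of the same length, 6.75% held the AP-1 letters, 32.7% a GC box and 12.4% a TATA box. All 8 genes had a window in that table, and among them Ecm1 was the 1 gene with the AP-1 letters. A match of letters is a description and no sign that a factor binds there.

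Tgfbi (ENSMUSG00000035493) encodes the integrin- and collagen-binding protein TGFBI, named for its induction by transforming growth factor beta. Its level was even in sham, with 35.4, 28.9 and 34.0 CPM in libraries 1 to 3, and uneven after tMCAO, with 163, 83.5 and 53.8 CPM. All 3 tMCAO libraries were above the highest sham library, and tMCAO 1 was far above the other two. The means were 32.8 ± 3.42 and 99.9 ± 56.2 CPM, with a log2 fold change of 1.48 ± 0.35. Without tMCAO 1 the log2 fold change was 0.98, and without tMCAO 3 it was 1.77. It was not called higher when sham 1, sham 2 or sham 3 was left out.

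Vcan (ENSMUSG00000021614) encodes versican, a large chondroitin sulfate proteoglycan that binds hyaluronan. Its transcript was close to undetected, with 0, 2 and 0 counts in sham 1 to 3 and 8, 0 and 1 counts in tMCAO 1 to 3. The 2 sham libraries without a count allow up to 1.27 and 1.15 CPM, and tMCAO 2 allows up to 1.62 CPM. The ratio of the 9 tMCAO counts to the 2 sham counts was 5.86 after scaling (exact 95% interval 1.21 to 55.8, counting error only). Without tMCAO 1 that ratio was 1.01 (0.0170 to 19.3), so the difference rested on 1 library, and none between the groups was detectable at this depth.

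Tgfbi and Vcan were among the 6 of the 8 genes that were highest in tMCAO 1 within tMCAO (37.8% of all tested genes). Within tMCAO, the summed markers of monocytes, border-associated macrophages, neutrophils and microglia, among others, were also highest in tMCAO 1. Those of endothelium, astrocytes, oligodendrocytes, fibroblasts and mural cells were highest in tMCAO 2, and those of choroid plexus and red cells in tMCAO 3. The 9 monocyte markers, all with counts in every library, had a summed level of 87.3, 96.7 and 81.5 CPM in sham 1 to 3 and of 312, 160 and 110 CPM in tMCAO 1 to 3. Of these sums, Fn1 alone gave 1.98 to 3.06 CPM in sham and 97.0, 58.2 and 19.2 CPM in tMCAO 1 to 3. Without Fn1 the sum of tMCAO 3 was below that of sham 2, so the groups overlapped. Of their 8 tested genes, 5 were called higher, among them Ccr2, a chemokine receptor of inflammatory monocytes, at 2.55 ± 0.730 CPM in sham and 10.3 ± 1.43 CPM in tMCAO. The 8 markers of border-associated macrophages summed to 157 to 207 CPM in sham and 330 to 408 CPM in tMCAO, and 4 of 7 tested were called higher. Of those markers, Siglec1 was at 0 in sham 2 and sham 3. Without tMCAO 1, 5 monocyte markers and 4 of border-associated macrophages were called higher, and 1 of each list was called lower. The part of these cells in the values of Ecm1, Tgfbi and Vcan was not tested. In sham, oligodendrocyte precursors, which express Vcan, left few reads: their 8 markers summed to 2.29 to 12.3 CPM there and to 2.13 to 5.42 CPM in tMCAO, where 2 of the 8 had counts in each library.

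**Figure D2:**
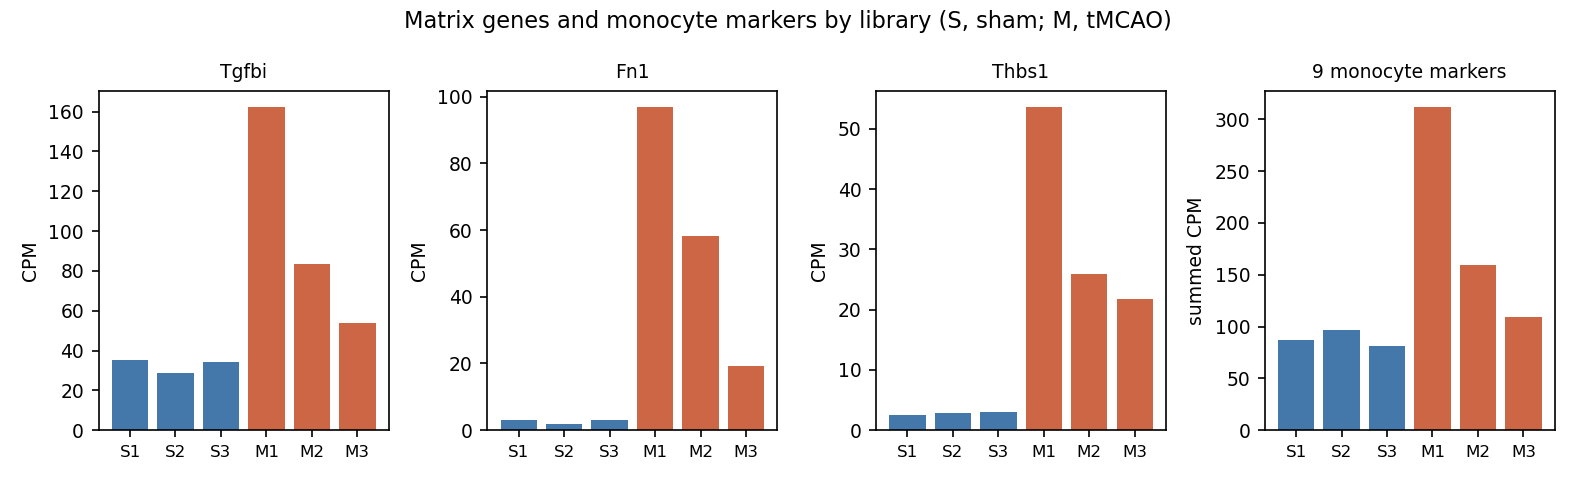
CPM of Tgfbi, Fn1 and Thbs1 and the summed CPM of 9 monocyte markers, of which Fn1 is 1, in each library (bars from 0; S, sham; M, tMCAO). All 4 quantities are highest in tMCAO 1 (163 CPM for Tgfbi, 312 CPM for the summed markers) and lowest among tMCAO libraries in tMCAO 3.

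Sparc (ENSMUSG00000018593) encodes SPARC, also called osteonectin, a secreted collagen-binding protein. It was the gene of the 8 whose libraries were all lower after tMCAO. Sham 1 to 3 held 2750, 2347 and 3092 CPM (5922 to 8083 counts), and tMCAO 1 to 3 held 1824, 1707 and 1907 CPM (3167 to 3704 counts). The lowest sham library was above the highest tMCAO library, and the tMCAO libraries lay close together. The means were 2730 ± 373 and 1812 ± 100 CPM, and the log2 fold change was -0.70 ± 0.14. It ran from -0.80 to -0.60 over 15 other settings, among them each library left out in turn. Markers of other cells that make SPARC were measured beside it. The 11 endothelial markers summed to 192 to 282 CPM in sham and 133 to 331 CPM in tMCAO, and none of 8 tested was called by edgeR's test or by DESeq2 (0 at an unadjusted p under 0.05), although 1 was called higher without tMCAO 1 and 1 with no filter. The 12 markers of fibroblasts and mural cells summed to 21.8 to 43.6 and 29.5 to 58.7 CPM, with Dpt at 0 in every library. The 9 astrocyte markers summed to 289, 434 and 144 CPM in sham 1 to 3 and to 70.9, 94.9 and 77.2 CPM in tMCAO 1 to 3. Of 5 tested, 3 were called lower, but 1 without sham 1 or tMCAO 1, and 0 without tMCAO 2 or tMCAO 3 or with limma voom. The part of these cells in the values of Sparc was not tested.

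The Sparc promoter, at chr11:55420081-55420330 (GRCm38.p6, minus strand), is shown beside that of Ecm1 because the levels of these genes differed in opposite directions.
Sparc: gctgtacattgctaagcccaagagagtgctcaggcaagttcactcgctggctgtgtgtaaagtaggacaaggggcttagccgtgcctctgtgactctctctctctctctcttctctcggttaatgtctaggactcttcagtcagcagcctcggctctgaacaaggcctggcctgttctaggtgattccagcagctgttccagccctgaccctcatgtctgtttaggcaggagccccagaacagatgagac
None of the 8 motifs was found in it, which says only that these letters are not in these 250 bases. The core read by PU.1, GAGGAA, was in none of the 8 promoters and in 23.25% of all windows.

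Plod1 (ENSMUSG00000019055) and Plod3 (ENSMUSG00000004846) encode lysyl hydroxylases 1 and 3, and the latter also transfers sugars to hydroxylated lysines. Plod1 had 118, 105 and 95.6 CPM in sham 1 to 3 and 206, 191 and 211 CPM in tMCAO 1 to 3. Its libraries were the least spread of the 4 genes that lay higher after tMCAO, and the lowest tMCAO library was well above the highest sham library. The means were 106 ± 11.3 and 203 ± 10.7 CPM, with a log2 fold change of 0.82 ± 0.16 and a range of 0.72 to 0.93 over 15 other settings.

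Plod3 had 31.6, 51.1 and 44.0 CPM in sham 1 to 3 and 74.4, 49.0 and 39.4 CPM in tMCAO 1 to 3. The groups overlapped, with tMCAO 3 below sham 2 and sham 3. Its means were 42.2 ± 9.87 and 54.3 ± 18.1 CPM, and the log2 fold change of 0.23 ± 0.25 became -0.02 without tMCAO 1. In GENCODE M21, Plod3 overlaps Znhit1 on the opposite strand. The length of the overlap was not measured, and no source used here says whether counting used the strand. Whether reads of either gene were counted for the other is therefore not known. Znhit1 had 43.2 to 49.5 CPM in sham and 58.6 to 64.5 CPM in tMCAO.

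P4ha1 (ENSMUSG00000019916) and P4hb (ENSMUSG00000025130) encode the catalytic alpha subunit and the beta subunit of prolyl 4-hydroxylase. The beta subunit is protein disulfide isomerase, which also works on its own in folding other secreted proteins and is a subunit of the microsomal triglyceride transfer protein. P4hb had 138, 159 and 132 CPM in sham 1 to 3 and 325, 256 and 268 CPM in tMCAO 1 to 3, with no overlap. Its means were 143 ± 14.3 and 283 ± 36.8 CPM, with a log2 fold change of 0.86 ± 0.17 and a range of 0.77 to 0.98 over 15 other settings.

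P4ha1 had 128, 172 and 142 CPM in sham 1 to 3 and 146, 99.2 and 104 CPM in tMCAO 1 to 3. Here tMCAO 2 and tMCAO 3 were below every sham library and tMCAO 1 was above sham 1 and sham 3. The means were 148 ± 22.6 and 116 ± 25.9 CPM, with a log2 fold change of -0.47 ± 0.19 that ran from -0.62 to -0.31 over 15 other settings.

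The balance of reads between the subunit genes of prolyl 4-hydroxylase differed between the groups. P4hb gave 51.9%, 48.0% and 48.2% of the summed counts of P4hb and P4ha1 in sham 1 to 3, with 95% Wilson intervals of 48.0 to 55.8%, 44.7 to 51.4% and 44.5 to 51.8%. In tMCAO 1 to 3 it gave 69.0%, 72.1% and 72.1%, with intervals of 66.0 to 71.8%, 68.5 to 75.4% and 68.7 to 75.3%. Every tMCAO share was above every sham share. The intervals cover counting error only and not the spread among pools. Both genes were chosen with their levels known, so this difference in share is a description and no test. The mean share was 49.4 ± 2.19% in sham and 71.0 ± 1.80% in tMCAO, and such a share does not depend on how libraries are scaled. It is a share of reads, not of protein subunits, since counts are not per length. The tMCAO intervals of the P4hb share overlapped each other, as did the sham intervals.

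For the lysyl hydroxylases, Plod1 gave 78.9%, 67.2% and 68.5% of the summed counts of Plod1 and Plod3 in sham 1 to 3 and 73.5%, 79.6% and 84.3% in tMCAO 1 to 3. These shares overlapped between the groups, with sham 1 (interval 74.3 to 82.8%) above tMCAO 1 (69.7 to 76.9%). The mean was 71.5 ± 6.41% in sham and 79.1 ± 5.43% in tMCAO.

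**Figure D3:**
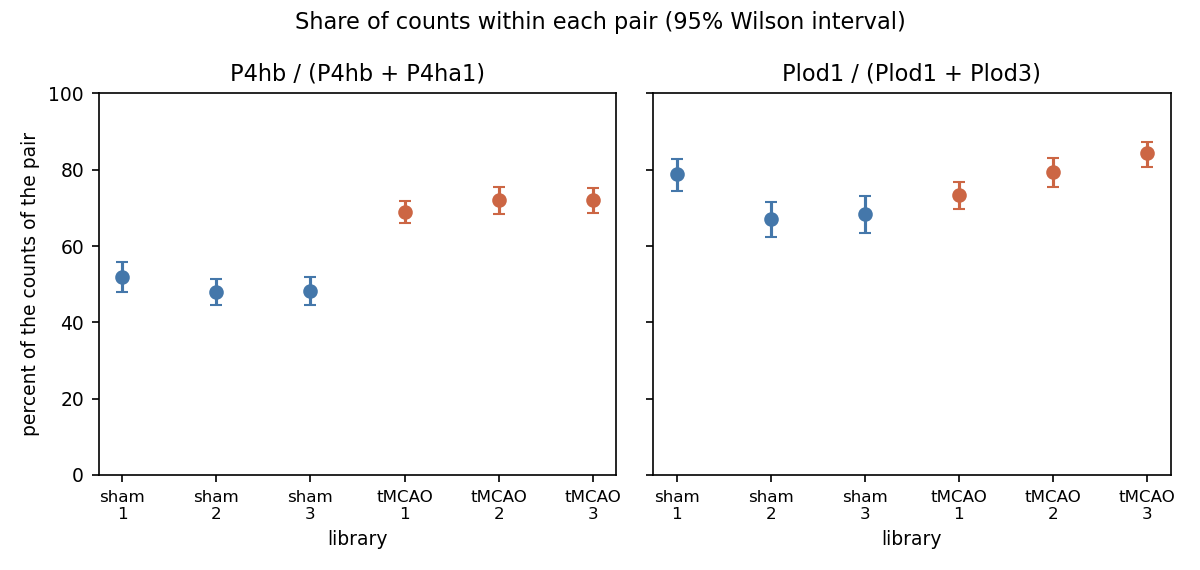
Percent of the summed counts of each pair that came from P4hb (left, with P4ha1) and from Plod1 (right, with Plod3) in each library, with 95% Wilson intervals for counting error. The P4hb share lies at 48.0 to 51.9% in sham and 69.0 to 72.1% in tMCAO, while the Plod1 shares of the groups overlap.

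The promoters of the prolyl 4-hydroxylase subunit genes are shown because the balance between these partner genes differed. They are at chr10:59323046-59323295 (plus strand) and chr11:120573254-120573503 (minus strand) of GRCm38.p6, with the same motifs in capitals.
P4ha1: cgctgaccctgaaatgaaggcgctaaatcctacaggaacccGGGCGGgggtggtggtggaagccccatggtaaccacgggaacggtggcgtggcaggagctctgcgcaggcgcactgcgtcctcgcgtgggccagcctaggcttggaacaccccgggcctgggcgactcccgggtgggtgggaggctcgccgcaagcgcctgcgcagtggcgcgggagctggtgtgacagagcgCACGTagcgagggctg
P4hb: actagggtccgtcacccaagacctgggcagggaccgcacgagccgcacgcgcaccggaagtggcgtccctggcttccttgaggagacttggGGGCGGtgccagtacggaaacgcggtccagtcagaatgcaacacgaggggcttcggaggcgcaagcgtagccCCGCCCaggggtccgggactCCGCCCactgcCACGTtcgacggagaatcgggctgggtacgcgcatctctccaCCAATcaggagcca
Both hold the hypoxia response core, ACGTG, 16 bases before the start of P4ha1 and 56 bases before that of P4hb, and so does the promoter of Plod3. These letters were in 16.6% of all windows. P4hb also holds 3 GC boxes and a CCAAT box, 14 bases before the start, and P4ha1 holds 1 GC box. The whole ER stress element, found in 0.113% of windows, was in none of the 8 promoter windows. The search could not decide this for P4hb. An element that began at its CCAAT box would run past the start, where no bases were read. A GC box was in 6 of the 8 (32.7% of all windows) and the interferon response element was in Tgfbi and Plod3 (2.98% of all windows).

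**Figure D4:**
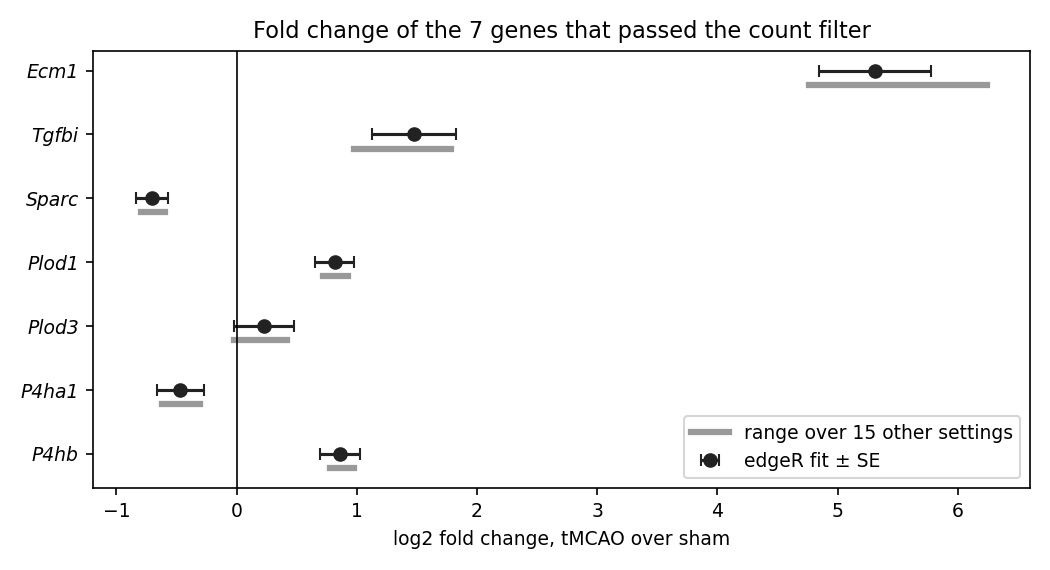
Log2 fold change of tMCAO over sham from the edgeR fit (points, bars show the SE) and its range over 15 other settings (grey lines) for the 7 genes that were tested. The grey line of Plod3 crosses 0, those of Ecm1, Tgfbi, Plod1 and P4hb lie above 0, and those of Sparc and P4ha1 lie below it.

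Within groups the 8 genes leaned on particular libraries. In tMCAO, 6 of the 8 were highest in tMCAO 1 (Plod1 and Sparc were highest in tMCAO 3), where 37.8% of all tested genes were highest in tMCAO 1. The lowest tMCAO level was in tMCAO 2 for 6 of the 8, against 28.3% of tested genes. In sham, 5 of the 8 were highest in sham 2, against 24.7% of tested genes. The lowest sham level was in sham 1 for 4 of the 8, with Vcan tied there with sham 3, against 24.7% of tested genes.

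The other genes of the matrix and of its synthesis show which parts of the pathway were measured at all in these libraries, whichever cells their reads came from. Of 183 such genes in lists by function, 51 passed the filter on low counts, 11 of them rose and 2 fell (21.6% and 3.92% of those tested), against 9.17% and 8.96% of all tested genes. Their median log2 fold change was 0.06, against 0.00 over all tested genes. These lists were also chosen with earlier results of these data known, so the shares are a description and no test. The number that rose was 6 without sham 1 or without sham 2, and 7 without both sham 1 and tMCAO 3. Another 16 of the 183 genes, Acan and Has2 among them, had 0 counts in all 6 libraries.

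The partners of the 4 enzymes in collagen synthesis were mostly at low levels, and none of the 7 tested of 27 was called in either direction by edgeR's test or by DESeq2 (1 at an unadjusted p under 0.05, median log2 fold change 0.12). With library totals only, 1 was called higher, and with no filter 1 was called lower. The third lysyl hydroxylase gene, Plod2, had 2 counts in sham and 2 in tMCAO, and P4ha2, which encodes another alpha subunit, had 14 and 12. P3h1 (2 and 1 counts) and Crtap (6 and 2), of the prolyl 3-hydroxylase complex, were likewise too low to test. Ppib, the third partner of that complex, a prolyl isomerase that also serves other secreted proteins, had 380 ± 28.3 and 446 ± 76.0 CPM (log2 fold change 0.12 ± 0.17). Serpinh1, the collagen chaperone HSP47, had 5.98 ± 4.09 and 5.17 ± 5.06 CPM. Colgalt1, which adds galactose to hydroxylysine, had 12.9 ± 5.03 and 21.0 ± 1.05 CPM (0.59 ± 0.29, adjusted p = 0.18 in edgeR's quasi-likelihood test, 0.0923 to 0.446 in other settings).

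Of 41 collagen chain genes, 3 passed the filter and 2 fell. With no filter, 1 chain was called higher and 2 lower. Col6a3, a chain of microfibrillar collagen VI, fell from 37.0 ± 4.91 to 20.4 ± 1.86 CPM (log2 fold change -0.98 ± 0.22, adjusted p = 0.00798 in edgeR's quasi-likelihood test, lower in 3 of 3 libraries, range of adjusted p over other settings 0.00446 to 0.0456). Col27a1, a fibrillar chain, fell from 97.4 ± 26.9 to 56.1 ± 9.10 CPM (-0.91 ± 0.21, adjusted p = 0.0103 in the same test). That call was lost without sham 1 (0.0643) and without tMCAO 2 (0.0501), and the range over other settings began at 0.000556. Col15a1 had 175 ± 33.1 and 162 ± 7.28 CPM and was not called. The chains of the main fibrillar collagens, Col1a1 (5 counts in sham and 12 in tMCAO), Col1a2 (16 and 15) and Col3a1 (3 and 26), did not pass the filter.

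The family of P4hb, the disulfide isomerases and their oxidases, had 13 of 16 genes tested, of which 2 rose and none fell (median 0.24). Erp44, which retains unassembled secreted proteins, rose from 37.5 ± 4.57 to 64.8 ± 1.5 CPM (0.67 ± 0.18, adjusted p = 0.0208 in edgeR's quasi-likelihood test). Tmx1, a membrane-bound member, rose from 55.0 ± 4.02 to 89.1 ± 6.53 CPM (0.58 ± 0.17, adjusted p = 0.0353). Both calls were lost without any 1 of the sham libraries, with adjusted p up to 0.0845 for Erp44 and 0.141 for Tmx1, from lows of 0.00687 and 0.0122 over other settings. Tmx1 also lost its call without tMCAO 2 (0.0581), without tMCAO 3 (0.0612), with DESeq2 (0.0608) and with upper-quartile scaling (0.0613). Pdia4 (0.24 ± 0.19) and Pdia6 (-0.17 ± 0.19), soluble isomerases like P4hb, were not called. Ero1l, which encodes the oxidase that recharges them, had 6.51 ± 1.06 and 13.5 ± 6.40 CPM (0.93 ± 0.37, adjusted p = 0.101 in edgeR's quasi-likelihood test, 0.0228 to 0.361 in other settings) and passed without tMCAO 3 (0.0228) and with no filter (0.0468). Pdia3 split across the groups: sham 1 held 64.5 CPM and tMCAO 3 held 52.7 CPM, against 565 to 830 CPM in the other 4 libraries, so no difference between the groups can be read from it. P4hb showed no such split.

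Other secreted matrix and matricellular glycoproteins had 7 of 40 genes tested, of which 2 rose and none fell. Fn1, which encodes fibronectin, had 2.95, 1.98 and 3.06 CPM in sham 1 to 3 and 97.0, 58.2 and 19.2 CPM in tMCAO 1 to 3. It rose by 4.28 ± 0.65 on the log2 scale (adjusted p = 0.00628 in edgeR's quasi-likelihood test), a call that limma voom did not make (0.0800, the highest of all settings). Thbs1, which encodes thrombospondin 1, an activator of latent transforming growth factor beta, had 2.53, 2.77 and 3.06 CPM in sham and 53.7, 25.9 and 21.8 CPM in tMCAO, and rose by 3.45 ± 0.39 (adjusted p = 0.000119, at most 0.00218 in other settings). In tMCAO both were highest in tMCAO 1, as Tgfbi was, and Fn1 is itself among the monocyte markers. The relatives of the members were not called: Sparcl1, an astrocyte and endothelial relative of Sparc, had 96.0 ± 55.3 and 39.6 ± 16.9 CPM (-1.41 ± 0.58, adjusted p = 0.169 in edgeR's quasi-likelihood test, 0.0483 to 0.382 in other settings), and Ecm2 had 6 counts in sham and 4 in tMCAO.

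The proteoglycans related to versican were barely detected. Bcan had 17 counts in sham and 3 in tMCAO, Ncan 13 and 2, and Hapln2, a link protein, 1 and 0, and none of these was tested. Of the 4 tested of 25 genes in that list, 1 rose: Srgn, the proteoglycan core of secretory granules, went from 210 ± 17.0 to 320 ± 38.6 CPM (0.48 ± 0.15, adjusted p = 0.0373 in edgeR's quasi-likelihood test). It lost its call without sham 1, 2 or 3 or tMCAO 1 (0.0963 to 0.141) and with upper-quartile scaling (0.0737), from a low of 0.0085. Of 21 genes that build or sulfate chondroitin chains, 7 were tested and 1 rose. Chst12, a chondroitin 4-sulfotransferase, rose from 12.5 ± 2.48 to 26.4 ± 1.77 CPM (0.96 ± 0.24, adjusted p = 0.0159, and 0.0775 without sham 1 or 0.0514 without sham 2, from a low of 0.00471).

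Receptors for these proteins were the list with the most calls, with 5 of 10 tested genes higher and none lower, of 13 listed. Of all tested genes, 9.17% were called higher and 8.96% lower. In CPM, 1 tested receptor gene was lower in every tMCAO library than in any sham library. With upper-quartile scaling, 1 receptor gene was called lower. Tlr2, a receptor that versican can engage, had 55.7, 56.7 and 49.3 CPM in sham 1 to 3 and 200, 267 and 190 CPM in tMCAO 1 to 3, and rose by 1.90 ± 0.18 on the log2 scale (adjusted p = 2.9e-05 in edgeR's quasi-likelihood test, at most 0.000699 in other settings). Cd44, the hyaluronan receptor, had 5.06, 3.57 and 6.12 CPM in sham and 22.7, 22.1 and 23.4 CPM in tMCAO, and rose by 2.08 ± 0.30 on the log2 scale (adjusted p = 0.000555 in edgeR's quasi-likelihood test, at most 0.00695 in other settings). Itga5, the alpha chain of the fibronectin receptor, rose from 11.3 ± 3.33 to 48.4 ± 7.27 CPM (1.98 ± 0.25, adjusted p = 0.000277, at most 0.00271). Stab1, a scavenger receptor that takes up SPARC, rose from 127 ± 25.2 to 233 ± 4.18 CPM (0.76 ± 0.17, adjusted p = 0.00775, at most 0.0393), while the level of Sparc itself lay lower. Lrp1, an endocytic receptor, rose from 118 ± 18.6 to 198 ± 9.60 CPM (0.63 ± 0.16, adjusted p = 0.0147, from a low of 0.00116) and lost its call without sham 1 (0.0687) or sham 2 (0.0694). The integrin genes Itgav, Itgb1, Itgb3 and Itgb5 were not called. Unlike Tgfbi, Cd44 and Stab1 were even across the tMCAO libraries.

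**Figure D5:**
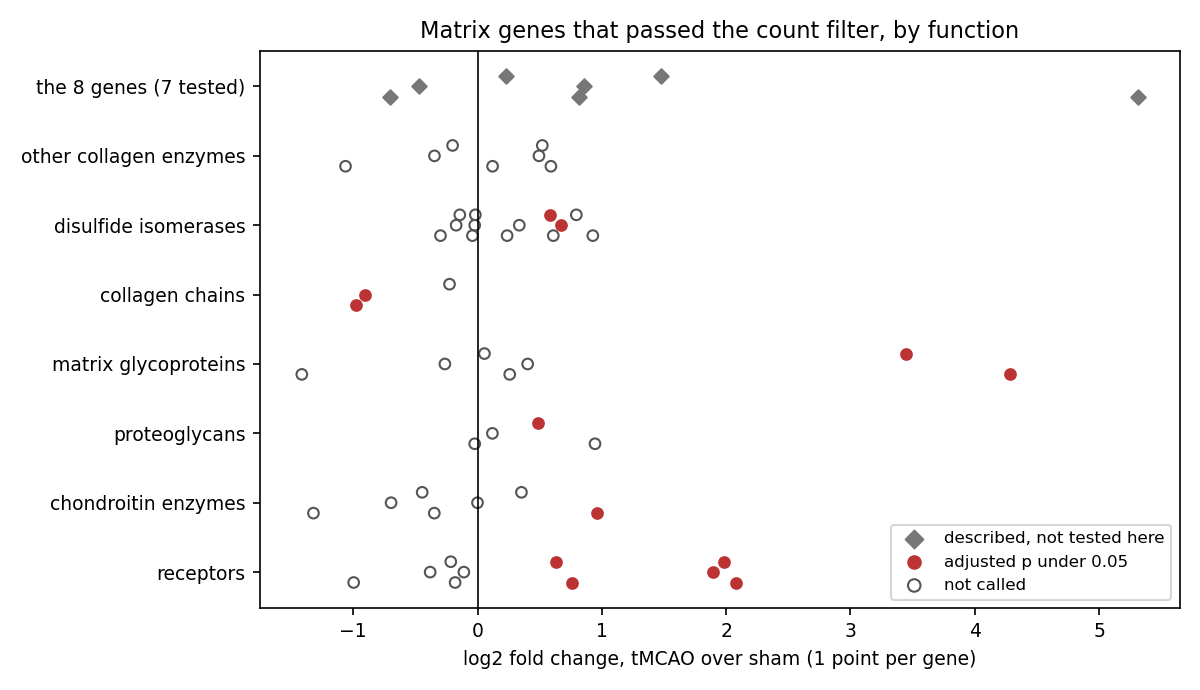
Log2 fold change of tMCAO over sham for each matrix gene that was tested, by function (1 point per gene; filled red points passed an adjusted p of 0.05 in edgeR's test, open points did not, and the 7 tested genes described here are grey diamonds). Red points lie to the right among receptors, matrix glycoproteins, disulfide isomerases, proteoglycans and chondroitin enzymes. They lie to the left among collagen chains and are absent among the other collagen enzymes.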

How the data were processed

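Total RNA was sequenced as nanopore cDNA made with a PCR-based kit, per the labels' protocols, and minimap2 is named, with no version, in the submitters' processing notes. Genome build, annotation, counting rule and strand use: not given in the sources used here. The labels' protocols speak of tissue, the series text of isolated microglia. The authors deposited raw read counts per gene, and beside them CPM, which the authors scaled by library totals, per the file headers (largest difference from CPM computed here 4.87e-06). Of 38219 lines, 12 held no values and were left out. No column was left without a sample.

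All genes were fitted with edgeR 4.0.16 (R 4.3.3): filterByExpr (minimum count 10, total 15), TMM, robust quasi-likelihood F tests with group as the only term, and Benjamini-Hochberg adjustment over 13127 genes. Calls have an adjusted p under 0.05. The SE is the absolute log2 fold change divided by the square root of F. The biological coefficient of variation was 22.6%. Alternatives were DESeq2 1.42.0, limma 3.58.1 voom, other scalings and filters, each library left out and a replicate block. The code was tested on simulated data. Pools prepared on the same day are not marked, and p-values cover only the spread among the pools, which may be technical. PCR reads carry no molecular identifiers, so intervals and the limit of 3 counts cover counting error only.

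The 8 genes, the lists by function, the marker lists and the rule for named genes were chosen with earlier results of these data known. Named genes are the 8, up to 5 called genes of each list by function with the smallest p, and relatives or partners of the 8 named in any case. Col15a1, the fibrillar chains, Znhit1, marker genes, Acan, Has2 and the integrin genes were named after their values were seen. Symbols and IDs of all 8 matched GENCODE M21, used for overlapping genes. Promoters come from the RefSeq table of GRCm38.p6, whose build may differ from the authors'.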

Additional observations from a re-analysis of the deposited data

How the results depend on the processing

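The 7 tested genes kept their direction in all 15 other settings except Plod3, whose log2 fold change of 0.23 became -0.02 without tMCAO 1. All but 3 of these values moved by less than the spread between replicates. The 3 were of Ecm1, at 4.77 without both sham 1 and tMCAO 3 (a setting chosen after seeing the data) and 4.76 to 6.24 with 1 library left out. The number called higher was 4 in every setting except 3 without sham 1, sham 2 or sham 3, where Tgfbi was lost. Nothing is read from this number, because the comparison was known when the genes were chosen. Genes changed numbered 2380 (1204 higher, 1176 lower). They were 4039 (2053 and 1986) with no filter, 1573 (652 lower) with both libraries left out, and 693 lower with DESeq2. With 1 library left out they were 1254 to 2590, with 700 to 1423 higher and 554 to 1167 lower. The other matrix genes higher (11) and lower (2) were 17 and 5 with no filter, 7 higher with both libraries left out, and 6 to 11 and 1 to 3 with 1 library left out. Of all calls 50.6% were higher, 63.2% with library totals only, where all genes had a median of 0.11 (log2), and 42.2% with upper-quartile scaling, where it was -0.07. Of 13 called genes named from the lists, 7 lost the call in some setting.

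The replicate numbers did not pair the libraries. The correlations of deviations between same-numbered libraries were -0.21, 0.02 and -0.18, and 0 of 6 libraries correlated best with its own number. With the replicate block, 1662 genes changed (834 higher, 828 lower) and 8 other matrix genes were higher and 3 lower. The block took the adjusted p in edgeR's quasi-likelihood test to 0.0626 for Erp44, 0.0959 for Tmx1 and 0.0932 for Srgn, and to 0.0483 for Sparcl1, while the log2 fold change of Tgfbi was 1.35.

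Directions turned for genes that were not called. The log2 fold change of Pdia3 (-0.02) was 0.013 with DESeq2, 0.14 with library totals, 0.055 with no filter, 0.039 with a filter of 1 CPM and -0.65 to 0.52 with 1 library left out. With 1 library left out, that of Serpinh1 ran from -1.33 to 0.42, Ppib from -0.0090 to 0.29 and Pdia6 from -0.32 to 0.015, and that of Pdia4 was -0.016 with both libraries left out. Depth limits Vcan and most collagen chains.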

Other observations

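Like Pdia3, other genes outside the 8 were low in the same pair of libraries, 1 of each group, and are named here after their values were seen. Tmx4, a membrane-bound disulfide isomerase, had 16.4 CPM in sham 1 and 9.59 CPM in tMCAO 3, and Cldn5, an endothelial tight junction gene, had 10 and 11 counts there against 46 to 106 counts in the other 4 libraries. Of the 8 genes, Plod3 was lowest within each group in these libraries, at 31.6 and 39.4 CPM.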
